A study of Rattus norvegicus with 6 samples.

Results

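The insulin-like growth factor (IGF) family was followed in RNA from healing femoral fractures through 10 genes: the ligands Igf1 and Igf2, the receptors Igf1r and Igf2r, and the binding proteins Igfbp2 to Igfbp7. They were taken by symbol from 34538 genes of the deposited tables, each symbol had 1 row, and all 10 passed the filter on low counts. The libraries came from fractures injected with MgPA-Gel (3 libraries), in the series title an adhesive built on coordination compounds of plant phosphate, and from fractures that received gel alone (Gel, 3 libraries). All rats were female Sprague Dawley animals, an outbred stock, ovariectomized on both sides at 8 weeks of age to cause osteoporosis. The left femur was cut across the midshaft 12 weeks later and nailed, and the tissue is the middle of the fractured femur, so bone, callus, marrow and adhering soft tissue are read together. In such bulk tissue, fewer cells of a type and less RNA per cell cannot be told apart. When the tissue was taken is not stated. Nor is it stated whether each of the 3 samples in a group is its own animal, so p-values reflect the spread between these samples, possibly a technical one.

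Igf1 is a peptide hormone and local growth factor that bone-forming cells both make and answer to, and bone matrix stores it. Both ligands act through Igf1r, a receptor tyrosine kinase that feeds the PI3K-AKT and MAPK pathways, whereas Igf2r, the cation-independent mannose 6-phosphate receptor, carries Igf2 and lysosomal enzymes to the lysosome and has no kinase. Igfbp2 to Igfbp6 bind the ligands tightly outside the cell and hold them back, store them or release them when proteases cut them, while Igfbp7 is a more distant relative of low affinity for IGFs.

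The libraries held 13.6 M to 18.2 M counts in genes (M, mega). All 7 osteoblast markers were present in every library, with a summed level of 36040 to 64129 CPM in MgPA-Gel and 54577 to 103302 CPM in Gel, where CPM is counts per M counts after TMM scaling. Most of that sum was Col1a1, a collagen that fibroblasts also make, with 31266 to 61259 CPM in MgPA-Gel and 52103 to 98357 CPM in Gel. Ibsp, a sialoprotein of bone, was at 1791 to 2550.4 CPM in MgPA-Gel and 1153 to 3148 CPM in Gel. Skeletal muscle RNA differed far more: the 5 matched fibre markers of 7 (Acta1, Myh1, Myl1, Ckm and Tnnt3) summed to 28234, 82.2 and 1159 CPM in MgPA-Gel 1, 2 and 3 and to 408, 218 and 6.30 CPM in Gel 1, 2 and 3. Mitochondrial genes took 25.9% of counts in MgPA-Gel 1 and 24.0% in Gel 1, against 5.29% to 8.83% in the other 4 libraries.

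The sequences just upstream of 4 members are shown, to set side by side the starts of the genes that the results turn on: the member that stood apart between the groups (Igfbp2), its neighbour on the chromosome (Igfbp5), the carrier of blood IGF (Igfbp3), and the lysosomal receptor (Igf2r). Each is the 250 bases before the start in RefSeq's GRCr8 assembly, read 5′ to 3′. Capitals mark the GC box GGGCGG and the E-box CACGTG in Igfbp2, TATATA in Igfbp3, and in Igf2r each E-box CACGTG with GT before it and AC after it. Igfbp5 held none of the 6 motifs searched and has no capitals.
Igfbp2 (GRCr8 chr9:81864561-81864810, + strand): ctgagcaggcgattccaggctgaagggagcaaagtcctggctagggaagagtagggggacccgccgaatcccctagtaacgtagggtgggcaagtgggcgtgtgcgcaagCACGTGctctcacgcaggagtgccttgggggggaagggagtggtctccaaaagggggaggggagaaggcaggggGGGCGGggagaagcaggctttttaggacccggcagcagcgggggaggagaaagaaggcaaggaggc
Igfbp5 (GRCr8 chr9:81914188-81914437, - strand): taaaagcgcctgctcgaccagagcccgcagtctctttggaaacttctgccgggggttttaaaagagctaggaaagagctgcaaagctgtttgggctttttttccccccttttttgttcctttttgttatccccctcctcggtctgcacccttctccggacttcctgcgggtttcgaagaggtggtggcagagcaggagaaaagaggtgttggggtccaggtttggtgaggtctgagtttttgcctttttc
Igfbp3 (GRCr8 chr14:86277945-86278194, - strand): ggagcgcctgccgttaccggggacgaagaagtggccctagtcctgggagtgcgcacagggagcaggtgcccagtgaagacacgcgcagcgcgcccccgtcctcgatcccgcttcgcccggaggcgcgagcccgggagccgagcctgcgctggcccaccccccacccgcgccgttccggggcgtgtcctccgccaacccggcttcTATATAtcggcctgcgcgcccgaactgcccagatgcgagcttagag
Igf2r (GRCr8 chr1:50526628-50526877, + strand): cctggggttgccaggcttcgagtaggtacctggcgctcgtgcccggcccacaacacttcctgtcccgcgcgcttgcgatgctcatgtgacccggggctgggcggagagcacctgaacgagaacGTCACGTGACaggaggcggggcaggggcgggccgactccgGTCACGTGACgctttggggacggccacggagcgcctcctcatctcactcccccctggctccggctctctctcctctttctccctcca

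Motifs were searched on both strands in the 250 upstream bases of all 10 members (11 RefSeq starts, with 2 for Igf2) and of 33469 rat starts. The E-box CACGTG with GT before and AC after it, a palindrome of the kind known from promoters of lysosomal genes, began 127 and 87 bases before the start of Igf2r. It was in 0.203% of all starts, and 3 of the 33469 held it at 2 or more places. The E-box without set flanks, which it contains, was in 5.59% of all starts and, among the members, also in Igfbp2 and Igf1r. TATATA stood 46 bases before the start of Igfbp3 (5.45% of all starts) and TATAAA 40 bases before that of Igfbp4 (12.9%). The GC box GGGCGG (30.5% of all starts) occurred 4 times upstream of Igfbp7, at 2 places upstream of Igf2r and once each upstream of Igf1r, Igfbp2 and the second Igf2 start. The AP-1 site TGANTCA (6.34% of all starts) was in no member's window. These matches are letters in a sequence and were not tested as binding sites.

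Ranked per length by FPKM (deposited values, fragments per kilobase and M of a size set per library), the binding proteins dominated the family. Mean FPKM over the 6 libraries was 454 for Igfbp7, 315 for Igfbp4, 112 for Igfbp5, 104 for Igfbp3 and 85.2 for Igfbp6. It was 46.7 for Igf1, 33.4 for Igf2r, 8.46 for Igf2, 4.49 for Igfbp2 and 1.56 for Igf1r. Igfbp7 was above Igfbp4, Igfbp4 above Igfbp5, and Igf2r above Igf2 in 6 of 6 libraries. The order of other neighbours did not hold everywhere: Igfbp5 was above Igfbp3 in 4 libraries, Igfbp3 above Igfbp6 in 4, and Igf1 above Igf2r in 3.

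**Figure D1:**
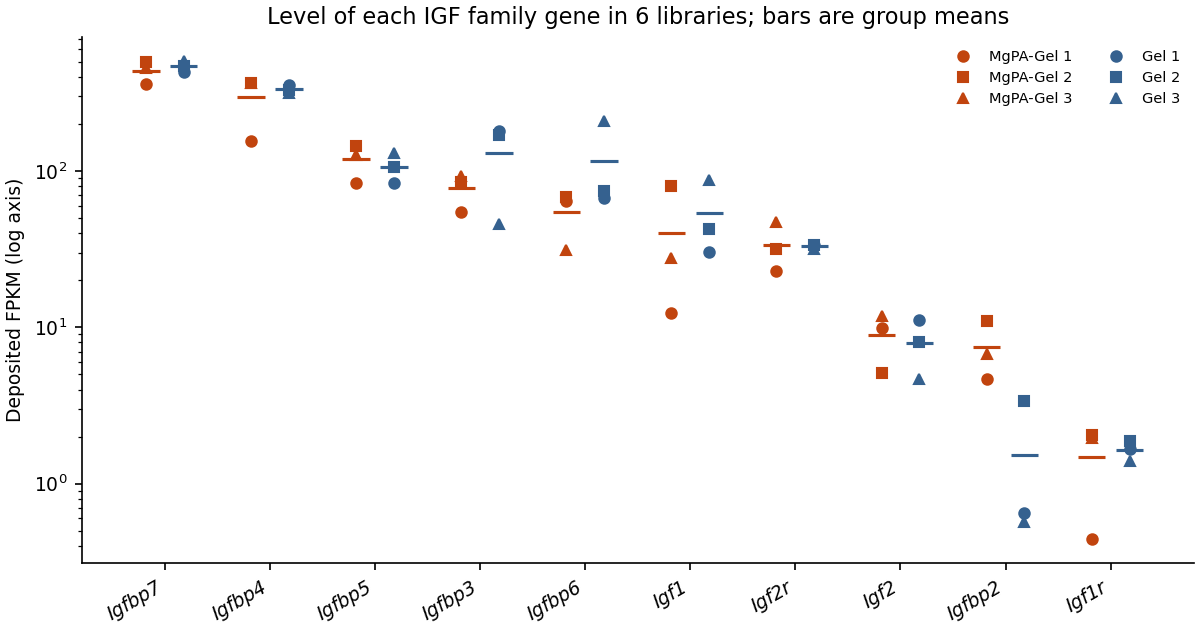
Deposited FPKM (log axis) of the 10 genes, ordered by mean level, with MgPA-Gel libraries left and Gel libraries right of each gene and bars for group means. Igfbp2 is the gene whose groups do not overlap; Igfbp7 lies highest and Igf1r lowest.

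Across the family, 0 of 10 genes passed a Benjamini-Hochberg adjusted p of 0.05 in edgeR's quasi-likelihood test of MgPA-Gel against Gel, where 0% of the 14818 genes tested passed and the smallest adjusted p was 0.998. DESeq2 called 0 of the 10 and limma-voom 0; DESeq2 called 8 of 21619 genes (0.037%). Positions of the genes are printed as deposited, and their genome build was not given in the sources used here. At an unadjusted p under 0.05 stood 1 of the 10, Igfbp2, against 2.63% of all genes tested (1.78% with a higher level in MgPA-Gel). In 1 of 10, again Igfbp2, the groups did not overlap, against 6.88% of genes tested (3.26% higher in MgPA-Gel). The fitted log2 fold change was above 0 in 4 members and below 0 in 6, with a median of -0.12, beside 0.03 over all genes tested.

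Igfbp2 (ENSRNOG00000016957, chromosome 9, 80118029 to 80144789, plus strand), a binding protein that also attaches to integrins and to heparin, had higher values in every MgPA-Gel library. It stood at 5.94, 14.1 and 8.60 CPM in MgPA-Gel 1, 2 and 3, against 0.822, 4.33 and 0.733 CPM in Gel 1, 2 and 3. These come from 95, 224 and 147 counts in MgPA-Gel and 12, 75 and 10 in Gel, so the Gel values rest on few counts. The groups did not overlap, and the nearest pair was MgPA-Gel 1 and Gel 2. The log2 fold change was 2.26 ± 0.76 (SE), with an unadjusted p = 0.0217 and an adjusted p = 0.998 in edgeR and an adjusted p = 0.407 in DESeq2, so it did not pass. With 3 libraries against 3, groups that do not overlap give an exact two-sided permutation p of 0.1, the smallest possible, so that test adds nothing to the values. Its log2 fold change was above 0 in all 18 alternatives, from 1.84 to 3.61, and the highest was without Gel 2. As the groups do not overlap, leaving out libraries could hardly turn the sign. With 1 library left out, the unadjusted p (edgeR) ran from 0.00062 (without Gel 2) to 0.0629 (without Gel 1).

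Igfbp5 (ENSRNOG00000017206, chromosome 9, 80150211 to 80167033, minus strand) lies 5421 bases from Igfbp2, with the ends of the genes facing each other and no gene between them in the deposited table. It is the binding protein known for attaching to bone mineral and matrix. It stood at 492, 852 and 742 CPM in MgPA-Gel 1, 2 and 3, against 486, 618 and 759 CPM in Gel 1, 2 and 3. The groups overlapped throughout, and the log2 fold change was 0.16 ± 0.28 (adjusted p = 0.998, edgeR). With the muscle fibre level of each library as a further term it was 0.52 (unadjusted p = 0.0307, adjusted p = 0.9999, edgeR). Over the 6 libraries it had 62223 counts, beside 563 for Igfbp2.

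Igfbp3 (ENSRNOG00000061910, chromosome 14, 87457647 to 87465374, minus strand) is the main carrier of IGFs in blood, where it forms a complex with the acid-labile subunit. It stood at 130.4, 207 and 224 CPM in MgPA-Gel 1, 2 and 3, against 427, 405 and 109.8 CPM in Gel 1, 2 and 3. Gel 1 and Gel 2 lay above all MgPA-Gel libraries and Gel 3 below all of them. The log2 fold change was -0.75 ± 0.51 (adjusted p = 0.998, edgeR) and did not pass. It was -1.17 without Gel 3 (unadjusted p = 0.00624, adjusted p = 0.9999, edgeR). In Gel 3 the endothelial markers were also at their lowest sum, with 342, 395 and 320 CPM in MgPA-Gel 1, 2 and 3 and 399, 538 and 269 CPM in Gel 1, 2 and 3 over the 4 matched markers of 5 (Cdh5, Kdr, Tek and Emcn). The sums of the muscle fibre (6.30 CPM), regenerating muscle (0.22 CPM) and neutrophil markers (58.9 CPM) were lowest in Gel 3 as well. The part of any of these cells in the Igfbp3 level was not tested.

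Igfbp6 (ENSRNOG00000010977, chromosome 7, 143749221 to 143754054, plus strand), the binding protein that prefers Igf2, had its high value in a single Gel library. It stood at 68.3, 72.8 and 33.1 CPM in MgPA-Gel 1, 2 and 3, against 70.7, 79.3 and 222 CPM in Gel 1, 2 and 3. The groups overlapped, with MgPA-Gel 2 above Gel 1. The log2 fold change was -1.10 ± 0.52 (unadjusted p = 0.0770, adjusted p = 0.998, edgeR). By DESeq2 the unadjusted p was 0.0279 (adjusted p = 0.9997), and without Gel 1 it was 0.0450 (adjusted p = 0.9999, edgeR). Without Gel 3 the log2 fold change came to -0.38. Gel 3 also held the highest sum of the 6 fibroblast and tendon markers: 523, 671 and 439 CPM in MgPA-Gel 1, 2 and 3, and 600, 457 and 1593 CPM in Gel 1, 2 and 3. The sums of the 7 osteoblast and 6 chondrocyte markers were highest in Gel 3 as well (103302 and 535 CPM). Most of the fibroblast and tendon sum in Gel 3 came from Dpt and Thbs4, matrix proteins of fibroblasts and tendon, at 593 and 734 CPM. Of those 6 markers, 3 were fitted higher in MgPA-Gel and 3 lower. The part of any of these cells in the Igfbp6 level was not tested.

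Igfbp4 (ENSRNOG00000010635, chromosome 10, 86950557 to 86962578, plus strand), an inhibitor of IGF action that pappalysin proteases cut, lay between 688 and 803 CPM in 5 of the 6 libraries. It stood at 339, 803 and 795 CPM in MgPA-Gel 1, 2 and 3, against 768, 714 and 688 CPM in Gel 1, 2 and 3. MgPA-Gel 1 stood alone at the low end, and the log2 fold change of -0.16 ± 0.35 was 0.14 without that library. Igfbp7 (ENSRNOG00000002050, chromosome 14, 33010300 to 33070190, plus strand), which is abundant in vessel walls, had the narrowest spread of the family, with the highest library 1.41 times the lowest. It stood at 396, 551 and 503 CPM in MgPA-Gel 1, 2 and 3, against 471, 518 and 559 CPM in Gel 1, 2 and 3 (log2 fold change -0.10 ± 0.20, adjusted p = 0.998, edgeR). It overlaps Polr2b and LOC103692785 on the other strand, and whether the libraries keep strand is not stated, so reads there cannot be told apart. Neither of these genes had more than 966 counts in a library, beside 6332 to 8961 for Igfbp7.

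**Figure D2:**
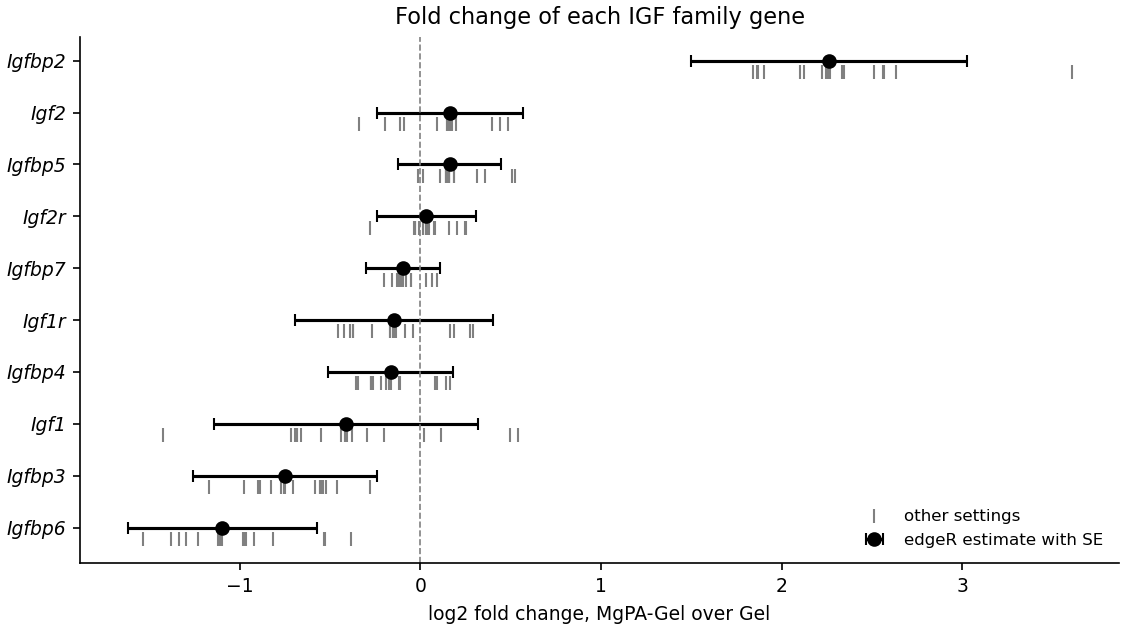
log2 fold change of MgPA-Gel over Gel for each of the 10 genes (black points with SE, edgeR) and its value under each of 18 other settings (grey ticks). Igfbp2 stays above 0 at every setting, Igfbp3 and Igfbp6 stay below 0, and the other 7 genes have settings on both sides of 0.

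Among the binding proteins alone, Igfbp7 and Igfbp4 took most of the summed FPKM in every library. Igfbp7 took 49.8%, 42.4% and 42.3% in MgPA-Gel 1, 2 and 3 and 38.6%, 40.9% and 42.0% in Gel 1, 2 and 3. Igfbp5 took 11.6%, 12.3% and 11.7% in MgPA-Gel 1, 2 and 3, against 7.48%, 9.17% and 10.7% in Gel 1, 2 and 3. The share of Igfbp2 was below 1% in every library, at 0.643%, 0.937% and 0.623% in MgPA-Gel 1, 2 and 3 and 0.0580%, 0.295% and 0.0474% in Gel 1, 2 and 3. The shares of the groups did not overlap for 3 of the 6 (Igfbp2, Igfbp5 and Igfbp7), although the CPM of Igfbp5 and Igfbp7 did, and for Igfbp7 the gap was from 42.3% to 42.0%. Shares of 1 sum depend on each other, and these differences were noticed in the values and were not tested. Igfbp6 overtook Igfbp3 in Gel 3, with 17.2% beside 3.78%, and in MgPA-Gel 1, with 8.86% beside 7.51%.

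**Figure D3:**
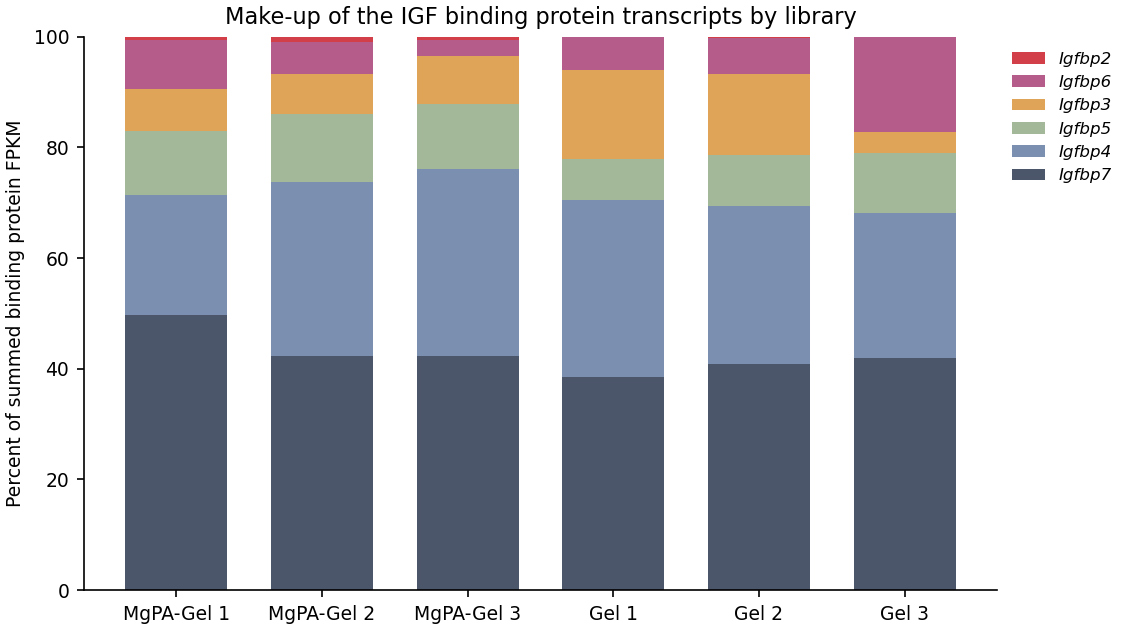
Share of each binding protein in the summed FPKM of Igfbp2 to Igfbp7, in percent, for each MgPA-Gel and Gel library. Igfbp7 and Igfbp4 form the base of every bar, Igfbp3 is widest in Gel 1 and Gel 2, and Igfbp6 is widest in Gel 3.

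Igf1 (ENSRNOG00000004517, chromosome 7, 28412198 to 28486609, plus strand) varied 7.11-fold over the libraries without separating the groups. It stood at 23.6, 155 and 52.9 CPM in MgPA-Gel 1, 2 and 3, against 58.1, 82.0 and 168 CPM in Gel 1, 2 and 3. Each group held 1 library of high level, MgPA-Gel 2 and Gel 3, and the log2 fold change was -0.41 ± 0.73 (adjusted p = 0.998, edgeR). It rested on single libraries, with -1.42 without MgPA-Gel 2 and 0.12 without Gel 3. Igf2 (ENSRNOG00000020369, chromosome 1, 215828102 to 215846911, minus strand), an imprinted growth factor most active before birth, stood at 55.4, 29.0 and 66.5 CPM in MgPA-Gel 1, 2 and 3. In Gel 1, 2 and 3 it was at 62.7, 45.4 and 26.4 CPM, and the log2 fold change was 0.17 ± 0.40 (adjusted p = 0.998, edgeR). It overlaps Mir483 and AC098563.1 on the same strand, both with 0 counts in all 6 libraries.

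The ligands ran opposite ways over the libraries: MgPA-Gel 2 and Gel 3 were the highest for Igf1 and the lowest for Igf2. Per length, Igf1 made up 55.5%, 94.0% and 70.0% of the ligand FPKM in MgPA-Gel 1, 2 and 3 and 73.1%, 84.1% and 94.9% in Gel 1, 2 and 3. The order of Igf1 from low to high was exactly the order of the muscle fibre level from high to low: MgPA-Gel 1, MgPA-Gel 3, Gel 1, Gel 2, MgPA-Gel 2, Gel 3. The orders of all members were set beside that of the muscle fibre level, and only Igf1 matched in full. Igfbp7 from low to high differed from it only in that Gel 1 lay below MgPA-Gel 3. The share of all genes tested with the order of Igf1 was not counted, so the match has no baseline. The muscle fibre level is the mean log2 CPM of the 5 markers centred on 0. It was 6.53, -1.98 and 1.63 in MgPA-Gel 1, 2 and 3 and 0.26, -0.56 and -5.89 in Gel 1, 2 and 3. With it as a covariate the log2 fold change of Igf1 was 0.50 and that of Igf2 -0.34, each of the other sign and neither past the threshold (adjusted p = 1.00 for each, edgeR). The part of muscle tissue in these levels was not tested. Summed binding protein FPKM was 32.6, 13.7 and 27.5 times summed ligand FPKM in MgPA-Gel 1, 2 and 3 and 26.8, 22.7 and 13.1 times in Gel 1, 2 and 3, so the groups overlapped.

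**Figure D4:**
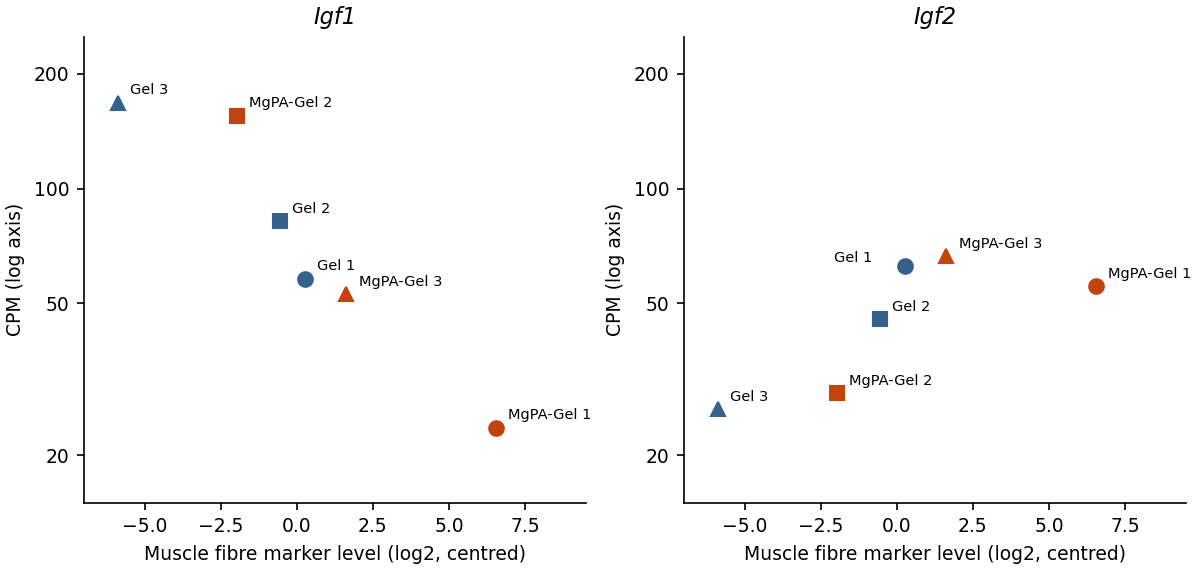
CPM of Igf1 (left panel) and Igf2 (right panel) on log axes against the mean log2 level of 5 muscle fibre markers, with 1 point per MgPA-Gel library (orange) and Gel library (blue). Igf1 is at 23.6 CPM in MgPA-Gel 1, which has the highest muscle level, and at 168 CPM in Gel 3, which has the lowest; Igf2 is lowest in MgPA-Gel 2 and Gel 3.

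The genes of most similar pattern were sought among 9185 named genes, by the root mean square difference of log2 CPM after centring each gene over the 6 libraries. For Igf1 they were Hpgd (0.16), Adamts15 (0.16) and Piezo2 (0.24), where the median gene differed by 0.97. Hpgd, which inactivates prostaglandins, stood at 3.69, 21.2 and 7.61 CPM in MgPA-Gel 1, 2 and 3 and 10.6, 13.5 and 22.7 CPM in Gel 1, 2 and 3. For Igf2 they were Emc4 (0.12), Commd6 (0.14) and Ndufb6 (0.16), where the median gene differed by 0.60. Emc4, a subunit of the membrane protein insertion complex of the endoplasmic reticulum, stood at 77.6, 34.6 and 100.7 CPM in MgPA-Gel 1, 2 and 3 and 84.9, 57.1 and 38.0 CPM in Gel 1, 2 and 3. These genes were selected for their likeness over 6 libraries, which carries no test.

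Neither receptor passed the test, and the groups overlapped for both. Igf1r (ENSRNOG00000014187, chromosome 1, 128924966 to 129206516, plus strand) stood at 1.81, 8.46 and 7.96 CPM in MgPA-Gel 1, 2 and 3, against 6.78, 7.62 and 5.72 CPM in Gel 1, 2 and 3. MgPA-Gel 1, with 29 counts, lay below the other 5 libraries, which had 78 to 136, and the log2 fold change was -0.14 ± 0.55 (adjusted p = 0.998, edgeR). Igf2r (ENSRNOG00000014997, chromosome 1, 48176106 to 48264477, plus strand) stood at 200.1, 279 and 411 CPM in MgPA-Gel 1, 2 and 3, against 295, 295 and 279.9 CPM in Gel 1, 2 and 3. The Gel libraries agreed closely while the MgPA-Gel libraries lay on both sides of them, with a log2 fold change of 0.03 ± 0.28 (adjusted p = 0.998, edgeR). Per length, Igf2r was 51.5, 15.4 and 24.1 times Igf1r in MgPA-Gel 1, 2 and 3 and 20.3, 18.03 and 22.9 times in Gel 1, 2 and 3. In 5 of the 10 members (Igf1, Igf1r, Igf2r, Igfbp4 and Igfbp7) the lowest library was MgPA-Gel 1, the library of most muscle and mitochondrial RNA, where 28.3% of all genes tested had their lowest value.

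Other genes of the pathway were read in 5 lists of 68 symbols, of which 64 were found and 54 tested. None passed: 0 of 54 at an adjusted p of 0.05 in edgeR, 0 in DESeq2, 0 in limma-voom, and 0 at an unadjusted p under 0.05, where 2.63% of all genes tested lay. The groups did not overlap in 2 of the 54 (Stat5b, higher in MgPA-Gel, and Ndn, lower), against 6.88% of all genes tested (3.26% higher and 3.62% lower).

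Of the transducers downstream of the receptors, 17 of 27 genes tested were fitted higher in MgPA-Gel, as were 54.8% of all genes tested, and the median log2 fold change was 0.10. Leaving out MgPA-Gel 2 gave 0.039, leaving out MgPA-Gel 3 gave 0.018 and leaving out Gel 3 gave 0.060, and with 1 library left out 14 to 22 of the genes were fitted higher. Akt1, the kinase at the centre of the pathway and the list's most abundant gene per length (mean 112 FPKM), differed by -0.12 ± 0.17. The adaptor Shc1 differed by -0.08 ± 0.21. Grb2, the adaptor that links receptors to RAS, had the list's smallest unadjusted p (0.155). It stood at 59.5, 116 and 62.4 CPM in MgPA-Gel 1, 2 and 3 against 56.6, 61.1 and 57.1 CPM in Gel 1, 2 and 3, and MgPA-Gel 2 alone stood apart (0.45 ± 0.28). Sos1, its exchange factor partner, differed by 0.23 ± 0.20 and the kinase Gsk3b by 0.23 ± 0.21.

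Proteases that cut binding proteins, and the stanniocalcins that inhibit pappalysins, were fitted higher in 4 of 7 genes tested, with a median of 0.02. Of all genes tested, 54.8% were fitted higher. Without MgPA-Gel 1 the list had 6 genes fitted higher and a median of 0.20, and without MgPA-Gel 2 it had 3 and -0.042. On log2(FPKM + 1) it had 2 and -0.041, and with the muscle fibre level in the fit 5 and 0.31. Ctsd, the lysosomal cathepsin D, and Htra1, a secreted serine protease, were as abundant per length as the main binding proteins, with mean FPKM of 463 and 444. They differed by 0.02 ± 0.25 and -0.29 ± 0.34, and Bmp1, a matrix-processing metalloprotease, by -0.06 ± 0.28. Pappa2, the pappalysin that cuts Igfbp3 and Igfbp5, stood at 6.13, 3.03 and 3.57 CPM in MgPA-Gel 1, 2 and 3, against 0.891, 3.99 and 0.293 CPM in Gel 1, 2 and 3. The groups overlapped through Gel 2 (log2 fold change 1.28 ± 0.86, unadjusted p = 0.182). Stc2 differed by 0.87 ± 0.47 (unadjusted p = 0.105) and Adam12, a metalloprotease that cuts Igfbp3 and Igfbp5, by 0.44 ± 0.40. Pappa was not matched by name.

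Of the other system genes, 3 of 10 were counted well enough to test. Igfals, the acid-labile subunit that liver makes for the blood complex, had 35, 34 and 12 counts in MgPA-Gel 1, 2 and 3 and 9, 13 and 15 in Gel 1, 2 and 3 (1.02 ± 0.59, unadjusted p = 0.124). Lrp1, a scavenger receptor that also binds Igfbp3, averaged 55.9 FPKM and differed by 0.02 ± 0.38, and Igf2bp2, an RNA-binding protein of Igf2 mRNA, by -0.56 ± 0.47. Igfbp1, the fasting-regulated binding protein of liver and the neighbour of Igfbp3 on chromosome 14 (87448692 to 87453785), had 2 counts in Gel 1 and 0 in the other 5 libraries. Ins1 and Ins2, the rat insulin genes, had 0 counts in all 6, which allows up to 3 counts in each library by counting error alone.

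Genes of the growth hormone axis, which drives Igf1 in liver and bone, were fitted higher in MgPA-Gel in 6 of 6 tested, as were 54.8% of all genes tested, with a median of 0.44. Without MgPA-Gel 2 it was 5 of 6 with a median of 0.26. Stat5b, the transcription factor that carries the growth hormone signal, stood at 37.1, 56.2 and 37.3 CPM in MgPA-Gel 1, 2 and 3, against 32.8, 33.04 and 24.3 CPM in Gel 1, 2 and 3. The groups did not overlap, but the log2 fold change of 0.53 ± 0.23 did not pass (unadjusted p = 0.0553, adjusted p = 0.998, edgeR). Cish, a feedback inhibitor that STAT5 induces, stood at 8.38, 28.4 and 4.27 CPM in MgPA-Gel 1, 2 and 3, against 3.08, 5.83 and 4.03 CPM in Gel 1, 2 and 3 (1.66 ± 0.70, unadjusted p = 0.0520). Jak2, the kinase bound to the receptor, stood at 433 CPM in MgPA-Gel 2 beside 98.4 to 189 CPM in the other 5 libraries. Stat5a and the feedback gene Socs2 differed by 0.34 ± 0.20 and 0.34 ± 0.33. MgPA-Gel 2 also had the highest sum of the 5 neutrophil markers, with 679, 1850 and 144 CPM in MgPA-Gel 1, 2 and 3 and 168, 213 and 58.9 CPM in Gel 1, 2 and 3. S100a8 and S100a9 led that sum, and Ltf had 0 or 1 count in every library. Of the 4 neutrophil markers tested, 3 were fitted higher in MgPA-Gel and 1 lower. The part of neutrophils in the axis was not tested.

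The list called imprinted growth genes was drawn from the network that moves with Igf2 in mice, and imprinting itself was not tested. Its genes were fitted lower in MgPA-Gel in 9 of 11 tested, with a median of -0.30. Of all genes tested, 54.8% were fitted higher. Gel 3 was the highest library for 7 of the 11 (Plagl1, Cdkn1c, Dlk1, Mest, Peg3, Dcn and Gnas). The share of all genes tested that were highest in Gel 3 was not counted, so this number has no baseline. Plagl1, a zinc-finger regulator of the network, stood at 11.2, 8.90 and 10.1 CPM in MgPA-Gel 1, 2 and 3, against 14.4, 8.43 and 29.9 CPM in Gel 1, 2 and 3. Cdkn1c, a cell cycle inhibitor, stood at 22.5, 21.2 and 28.6 CPM in MgPA-Gel 1, 2 and 3, against 30.01, 24.6 and 58.4 CPM in Gel 1, 2 and 3. Without Gel 3 the median was -0.10 and 7 of 11 were fitted lower. Without Gel 3 and MgPA-Gel 1 it was -0.033 with 6 of 11 lower, and with the muscle fibre level in the fit -0.12 with 6 of 11 lower. The fibroblast and tendon markers peaked in Gel 3 too, with a sum of 439 to 671 CPM in MgPA-Gel and 457 to 1593 CPM in Gel. So did the osteoblast and chondrocyte sums, and the part of any of these cells in the list was not tested. Igf2 itself was at its lowest in Gel 3. Ndn, a growth-restraining nuclear protein, stood at 3.88, 3.91 and 3.63 CPM in MgPA-Gel 1, 2 and 3, against 4.59, 6.87 and 5.94 CPM in Gel 1, 2 and 3, with no overlap and a difference of -0.61 ± 0.29 (unadjusted p = 0.0721). Dcn, the small proteoglycan decorin, was the most abundant of the list per length (mean 795 FPKM) and differed by -0.30 ± 0.31, while Gnas and Mest differed by -0.15 ± 0.20 and -0.76 ± 0.58.

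**Figure D5:**
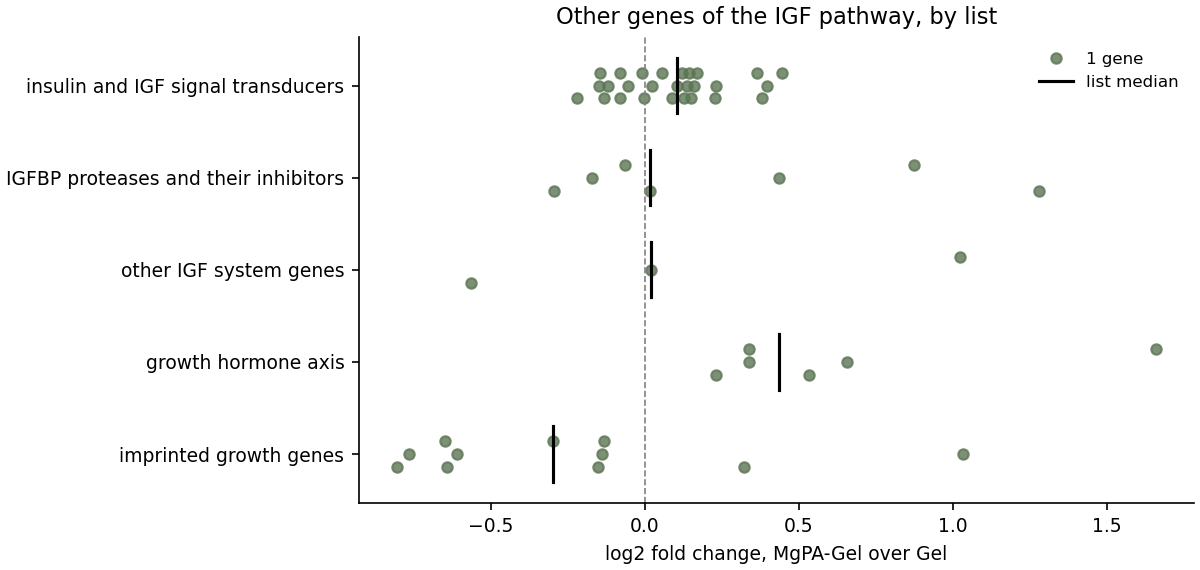
log2 fold change of MgPA-Gel over Gel (edgeR) for each of the genes tested in the 5 pathway lists (points) with the list's median (line). The 6 growth hormone axis genes all lie above 0, 9 of 11 genes of the imprinted growth list lie below 0, and no gene passed the test.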

How the data were processed

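Gene expression was measured in 6 poly-T selected RNA libraries, 3 MgPA-Gel and 3 Gel, grouped by their titles. The deposited count table holds whole counts per gene, not normalized, and the authors' second table holds FPKM. The FPKM equal counts over gene length and a size per library of 13.7 M to 17.3 M, within 0.1% in all 34538 genes. That size was 0.878 times the total count in MgPA-Gel 1 and 1.10 times in MgPA-Gel 3, so the FPKM are not per total count. Tools named in the submitters' processing notes, without their roles, are DESeq2 1.20.0, featureCounts 1.5.0-p3, fastp, StringTie 1.3.3b, edgeR 3.22.5 and HISAT2 2.0.5. The genome build, like the strandedness, was not given in the sources used here. Left out were 11692 blank rows of the count table, with no count above 0, and 2 unnamed columns.

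The test on counts was that of edgeR 4.0.16 (R 4.3.3) on the 14818 genes that filterByExpr kept, with TMM factors, glmQLFit (robust) and glmQLFTest, two-sided, and Benjamini-Hochberg adjustment over all 14818. The SE is the coefficient divided by the root of the F statistic. The common biological coefficient of variation was 41.3%, and no libraries of a group agreed within sampling noise. The scripts were tested on simulated data. Alternatives used DESeq2 1.42.0, limma 3.58.1 (voom, and log2(FPKM + 1) and log2(FPKM + 0.1) over genes of mean FPKM of at least 0.5), other scaling and filters, a replicate block, a muscle covariate and left-out libraries.

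The members and lists were chosen with earlier results of these data known. From each pathway list the 3 genes of smallest unadjusted p and the 3 of highest mean FPKM are named, except for 1 that is not reported here. For Igf1 and Igf2, the 3 genes of most similar pattern are named, among genes whose mean log2 CPM reached 3. Igfbp1, Ins1 and Ins2 were named after their values were seen. Upstream sequences are RefSeq's, matched by symbol for 10 of 10 members.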

Additional observations from a re-analysis of the deposited data

How the results depend on the processing

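Of the 10 members, 0 passed the threshold in any of 18 alternatives, with a smallest adjusted p of 0.407 (Igfbp2, DESeq2), so the direction of a member is an estimate with no call behind it. Over all genes, edgeR called 0, DESeq2 8, and leaving out 1 library 0 to 2 (2 without MgPA-Gel 2). The pathway lists had 0 genes called at every setting. Ratios between members leaned on single libraries. The mean ratio of Igf2r to Igf1r in MgPA-Gel was 30.3, and 19.7 without MgPA-Gel 1. The mean ratio of Igf2 to Igf1 was 0.431 in MgPA-Gel, and 0.246 without MgPA-Gel 1; in Gel it was 0.204, and 0.121 without Gel 1.

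The sign held at every setting in Igfbp2 (1.84 to 3.61), Igfbp3 (-1.17 to -0.28) and Igfbp6 (-1.54 to -0.38), and turned in the other 7 members in 26 of their 126 values. For Igfbp2, whose groups do not overlap, left-out libraries could hardly turn the sign. With 1 library left out, the log2 fold changes ran from -1.42 to 0.12 (Igf1), -0.11 to 0.49 (Igf2), -0.46 to 0.29 (Igf1r), -0.28 to 0.25 (Igf2r), -0.35 to 0.14 (Igfbp4), -0.012 to 0.36 (Igfbp5) and -0.20 to 0.030 (Igfbp7). Without MgPA-Gel 1, Igf1 was at 0.020; without MgPA-Gel 3, Igf2 was at -0.089; without Gel 3, Igf2 was at -0.11 and Igf2r at -0.0045. Without Gel 3 and MgPA-Gel 1 together, Igf1 was at 0.54, Igf2 at -0.20, Igf1r at 0.16, Igfbp4 at 0.084 and Igfbp7 at 0.067. Without Gel 1 and MgPA-Gel 1 together, Igf1r was at 0.28 and Igfbp4 at 0.17. With the muscle fibre level added to the fit, Igf1 was at 0.50, Igf2 at -0.34, Igf1r at 0.19, Igfbp4 at 0.091 and Igfbp7 at 0.092. Igf2r was at -0.030 by limma-voom and on log2(FPKM + 1), and at -0.033 on log2(FPKM + 0.1). Beyond the left-out libraries, the cause was not tested.

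Same-numbered libraries deviated together in the first and second pair (correlation 0.25 and 0.20) and not in the third (-0.027), so the numbers were not taken to pair the libraries, and the labels do not say what they stand for. Not every library correlated best with its own number. Both libraries numbered 1 had a high mitochondrial share (25.9% in MgPA-Gel, 24.0% in Gel). With the replicate block edgeR called 0 genes, Igfbp2 was at 2.63 (adjusted p = 0.681) and Igf2r at -0.028. Depth limits Igfbp2 and Igf1r, which had 563 and 608 counts over the 6 libraries; the other 8 members had 4545 or more.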
